A study of Hevea brasiliensis with 21 samples.

Results

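lMYC5, a factor similar to MYC4 (contig CL10144Contig1, 1032 bases), and a bHLH147-like factor (contig CL1Contig10832, 1248 bases) are basic helix-loop-helix (bHLH) transcription factors of the rubber tree, Hevea brasiliensis. Both contigs were taken by name, with earlier results of these data known. They are 2 of the 86941 contigs of the reference transcriptome on which latex RNA was counted. Natural rubber is made in laticifers, tube-like cells of the bark, and a cut into the bark (tapping) drains their rubber-bearing fluid content, the latex. Ethephon, which releases ethylene in the bark, is applied to prolong that flow. Tapping panel dryness (TPD) is a disorder in which the tapping cut stops yielding latex.

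RNA was sequenced from 21 latex libraries in 7 groups of 3 trees each, 9 libraries of clone PB260 and 12 of clone PB217. PB260 was sampled at month 36 of tapping, as control trees with slight TPD and no ethephon, as slight TPD trees with ethephon 12 times a year and as severe TPD trees with ethephon 12 times a year. PB217 was sampled at month 1 as healthy trees without and with ethephon, and at month 36 as healthy control trees and as TPD trees with ethephon 12 times a year, the severity of which was not stated. The sample labels call every library untreated and wild type, and call the slight TPD trees of PB260 healthy. The PB260 conditions were therefore read from the study's methods, and those of PB217 from the sample titles. The clones also carried different tapping codes, S_D2 in PB260 and T_D1 in PB217, so that clone and tapping system cannot be told apart. Both clones were mapped to contigs of PB260. At month 36 the control trees of both clones were harvested on 1 day and the ethephon trees of both clones on another, and the effects of harvest day and of ethephon cannot be told apart there. Control and ethephon trees of PB217 at month 1 shared a day.

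MYC factors are the central activators of jasmonate signalling in Arabidopsis. JAZ repressors hold them inactive until the jasmonate hormone, made after wounding, leads to breakdown of the repressors, and MYC proteins then switch on wound and defence genes. Arabidopsis bHLH147 and bHLH149 belong to a different branch, the ATBS1-interacting factors, atypical bHLH proteins that bind other helix-loop-helix proteins and restrain growth controlled by brassinosteroids.

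The libraries held 16102321 to 23126417 counted read pairs. lMYC5 was counted with 77 to 13820 pairs per library and the bHLH147-like contig with 518 to 24538 pairs. Levels are given in CPM, the usual unit of counts scaled by library total, after TMM scaling over the 21 libraries. Both latex marker contigs, the allergen Hev b 4 and a Hevea 50 kDa protein, were counted, with a summed level of 3.80 to 158.8 CPM. The 3 photosynthesis contigs, which mark green bark cells, summed to 0.106 to 0.565 CPM. Best matches to powdery mildew summed to 1.60 to 15.9 CPM, with 2 to 5 of 62 contigs detected in a library. In latex, fewer cells of a type and less RNA per cell cannot be told apart. The correlation of a library with its own group ranged from 0.941 to 0.988, and the lowest was PB217 TPD tree 2.

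lMYC5 and the bHLH147-like contig were both more than 10-fold higher in the latex of PB260 trees that received ethephon than in control trees, whether TPD was slight or severe. In slight TPD trees with ethephon lMYC5 stood at 414, 372 and 505 CPM, and in control trees at 47.8, 33.4 and 10.1 CPM. The bHLH147-like contig stood at 721, 594 and 897 CPM with ethephon and at 62.1, 49.3 and 31.6 CPM in control trees. Every ethephon tree lay far above every control tree for both contigs, and control tree 3 was the lowest of the controls for both.

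The means were 430.2 ± 68.0 CPM against 30.4 ± 19.01 CPM (SD, n = 3) for lMYC5 and 737 ± 152 CPM against 47.7 ± 15.4 CPM for the bHLH147-like contig. The log2 fold change of lMYC5 was 3.84 ± 0.49 (SE; 14.3-fold, 95% interval 6.71 to 30.6), with an adjusted p of 0.000783 in edgeR's quasi-likelihood test. The log2 fold change of the bHLH147-like contig was 3.97 ± 0.30 (15.6-fold, 95% interval 9.82 to 24.9), with an adjusted p of 0.000111 in the same test. Both members were called higher, against 13.2% of the 30522 contigs tested, and both had groups that did not overlap, against 21.4% of contigs in that direction. They ranked 134th and 123rd from the highest fold change. Because the members were chosen with earlier results of these data known, such shares give scale, here and below, and are not independent support. In the same trees the summed latex markers stood at 3.80 to 10.7 CPM with ethephon and at 6.87 to 58.1 CPM in control trees, neither of the 2 markers passing the test, the mildew matches at 7.42 to 11.5 CPM and 13.0 to 15.9 CPM, and the TMM factors at 1.24 to 1.37 and 1.07 to 1.17. The part of these in the result was not tested.

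**Figure D1:**
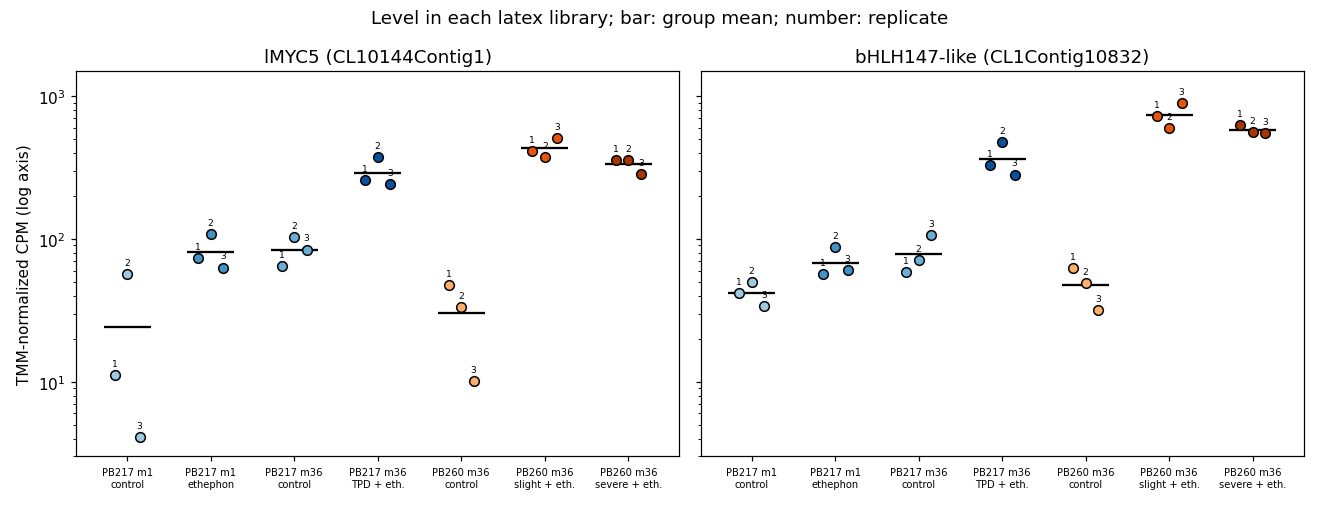
Level of lMYC5 (left) and the bHLH147-like contig (right) in each library, in TMM-normalized CPM on a log axis, by group (m1 and m36, months of tapping; eth., ethephon). Points are trees, numbered by replicate, and bars are means of 3 trees. All 9 trees with TPD and ethephon lie at or above 241 CPM for lMYC5 and 282 CPM for the bHLH147-like contig, above all other trees.

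In severe TPD trees with ethephon the levels of both factors were also high, slightly below those of slight TPD trees. lMYC5 stood at 355, 355 and 284 CPM (mean 332 ± 41.01) and the bHLH147-like contig at 629, 559 and 551 CPM (mean 579.6 ± 42.6). For lMYC5 every severe TPD tree lay below every slight TPD tree, while the bHLH147-like levels overlapped.

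The log2 difference between severe and slight TPD trees was -0.42 for lMYC5 (SE 0.18, 95% interval -0.83 to -0.0021) and -0.38 for the bHLH147-like contig (SE 0.20, 95% interval -0.83 to 0.06). Neither passed edgeR's quasi-likelihood test, with an adjusted p of 0.524 and 0.589 and an unadjusted p of 0.0491 and 0.0837. The intervals allow a level in severe TPD trees between 0.562 and 0.999 of that in slight TPD trees for lMYC5 and between 0.562 and 1.04 for the bHLH147-like contig. In this comparison 0.133% of the 30061 contigs were called, all 40 of them higher in severe TPD, and 2859 had an unadjusted p under 0.05. The study, which used edgeR's exact test, reported many more contigs in this comparison, most of them under-expressed in severe TPD. The share of contigs whose severe TPD trees all lay below the slight TPD trees, as those of lMYC5 did, was 6.15%. These groups were harvested on the same day.

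Against control trees without ethephon, the severe TPD trees had 10.96-fold higher lMYC5 (log2 3.45 ± 0.48, 95% interval 5.23-fold to 22.96-fold) and 12.2-fold higher bHLH147-like levels (log2 3.61 ± 0.29, 7.87-fold to 19.1-fold). The adjusted p in edgeR's quasi-likelihood test was 0.00369 for lMYC5 and 0.000529 for the bHLH147-like contig. Both were called higher, against 6.6% of the 29900 contigs tested. The groups did not overlap for either member, as for 18.4% of contigs in that direction. The mildew matches stood at 5.01 to 11.6 CPM in severe TPD trees and 13.0 to 15.9 CPM in control trees, and the summed latex markers at 10.5 to 24.5 and 6.87 to 58.1 CPM, and their part in the result was not tested. The comparisons of slight and of severe TPD trees with control trees share the same 3 control trees.

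In PB217 both factors were higher in TPD trees with ethephon than in control trees of the same month, by smaller folds than in PB260. lMYC5 stood at 256, 372 and 241 CPM in TPD trees and at 64.6, 103 and 84.1 CPM in control trees. The bHLH147-like contig stood at 328, 475 and 282 CPM in TPD trees and at 58.8, 71.5 and 107 CPM in control trees. TPD tree 2 was the highest of its group for both, and all TPD trees lay above all control trees.

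Means were 289.8 ± 71.7 against 83.9 ± 19.3 CPM for lMYC5 and 362 ± 101 against 79.0 ± 24.7 CPM for the bHLH147-like contig. lMYC5 was 3.52-fold higher (log2 1.81 ± 0.27, 95% interval 2.29-fold to 5.39-fold, adjusted p 0.0141 in edgeR's quasi-likelihood test). The bHLH147-like contig was 4.67-fold higher (log2 2.22 ± 0.31, 2.86-fold to 7.61-fold, adjusted p 0.0127 in the same test). Both were called higher, against 4.51% of the 29124 contigs tested, and 18.6% of contigs had groups without overlap in that direction. The calls were lost when single control trees were left out. Without control tree 1 the adjusted p was 0.0756 for lMYC5 and 0.068 for the bHLH147-like contig (log2 1.66 and 2.05). Without control tree 3 it was 0.082 and 0.0633 (log2 1.81 and 2.49), and without control tree 2 the bHLH147-like contig had 0.0582 (log2 2.152), all by edgeR's quasi-likelihood test. The summed latex markers were at 4.50 to 49.4 CPM in TPD trees and at 40.1 to 103 CPM in control trees, neither of the 2 passing the test, and the TMM factors at 0.998 to 1.28 and 0.810 to 0.884, and their part in the result was not tested.

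After 1 month of tapping, ethephon trees of PB217 had higher levels of both factors than control trees, but the difference did not pass the test. lMYC5 stood at 73.2, 109 and 63.0 CPM with ethephon (mean 81.6 ± 23.9) and at 11.1, 56.9 and 4.10 CPM without (mean 24.02 ± 28.7). The bHLH147-like contig stood at 56.5, 87.9 and 60.2 CPM with ethephon (mean 68.2 ± 17.2) and at 41.6, 49.8 and 34.0 CPM without (mean 41.8 ± 7.91). No ethephon tree overlapped a control tree for either factor. Control tree 2 came close to the ethephon trees for lMYC5, while control trees 3 and 1 held the lowest and the third lowest lMYC5 level of the 21 libraries.

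lMYC5 was 3.36-fold higher (log2 1.75 ± 0.69, 95% interval 1.17-fold to 9.62-fold) and the bHLH147-like contig 1.62-fold higher (log2 0.70 ± 0.20, 1.19-fold to 2.21-fold). The adjusted p in edgeR's quasi-likelihood test was 0.584 and 0.576, and the unadjusted p 0.0279 and 0.00593. This test called 0.0% of the 27226 contigs, with 2221 at an unadjusted p under 0.05, while edgeR's exact test called 84 contigs and DESeq2 55, neither member among them. With no count filter, 464 contigs were called, both members among them, with an adjusted p of 4.49e-17 for lMYC5 and 0.0184 for the bHLH147-like contig by the quasi-likelihood test of edgeR. The lMYC5 fold was nearly the same as with the filter, and its control trees ranged from 4.10 to 56.9 CPM. Its p without the filter therefore cannot be read as a measure of the spread between trees, and the cause was not tested. Groups without overlap in this direction were found for 6.88% of contigs. lMYC5 had the 14th highest fold change of all contigs tested and the bHLH147-like contig the 447th. The lMYC5 fold was lowered by control tree 2, without which its log2 fold change was 3.44 (adjusted p 0.174 by the same test). The summed latex markers were at 66.4 to 158.8 CPM with ethephon and at 24.8 to 70.6 CPM without, neither of the 2 passing the test, and their part in the result was not tested.

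**Figure D2:**
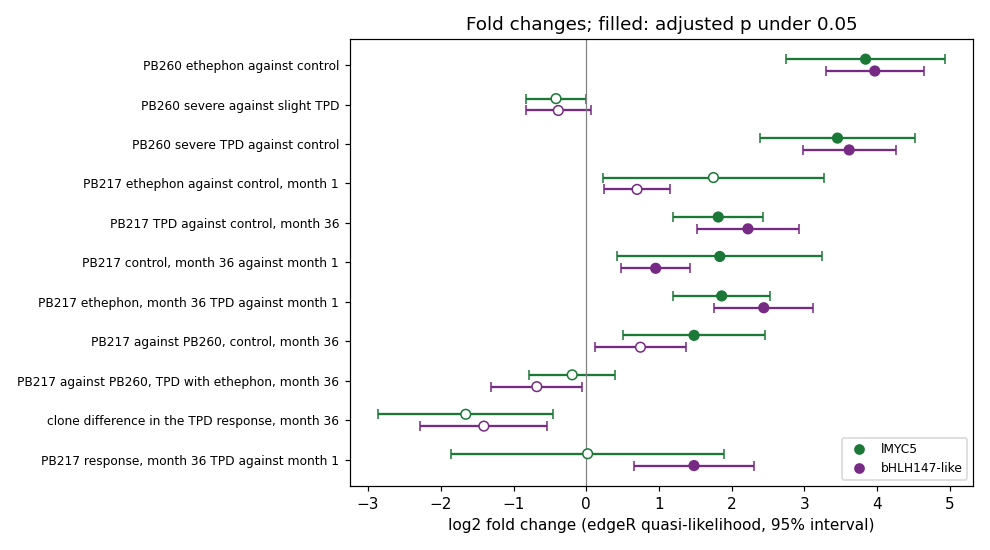
log2 fold change of lMYC5 and the bHLH147-like contig in the 9 comparisons and 2 differences between responses (last 2 lines), from edgeR's quasi-likelihood test. Points are estimates, bars 95% intervals, and filled points have an adjusted p under 0.05. Both estimates lie between 3.45 and 3.97 where PB260 ethephon trees are set against control trees, and between 1.81 and 2.22 where PB217 TPD trees are.

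Between month 1 and month 36, both factors rose in PB217 with and without ethephon. Without ethephon, lMYC5 was 3.57-fold higher at month 36 (log2 1.84 ± 0.65, adjusted p 0.0445 in edgeR's quasi-likelihood test) and the bHLH147-like contig 1.94-fold higher (log2 0.95 ± 0.22, adjusted p 0.00602 in that test). Both were called, against 18.1% of the 27884 contigs, and no tree of month 36 overlapped month 1, as for 21.9% of contigs in that direction. With ethephon, and TPD at month 36 only, lMYC5 was 3.63-fold higher (log2 1.86 ± 0.29, adjusted p 0.00319) and the bHLH147-like contig 5.43-fold higher (log2 2.44 ± 0.30, adjusted p 0.00125), again by edgeR's quasi-likelihood test. Both were called, against 24.1% of the 28798 contigs called in either direction, 3469 of them higher, and neither overlapped, as for 21.2% of contigs in that direction. Of the latex markers, 1 of 2 was called lower at month 36 in this last comparison, the summed latex markers stood at 4.50 to 49.4 CPM against 66.4 to 158.8 CPM and the TMM factors at 0.998 to 1.28 against 0.655 to 0.869, and their part was not tested. The months also differ in harvest day.

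The call for lMYC5 in control trees was lost when 1 of several trees was left out. By edgeR's quasi-likelihood test the adjusted p was 0.143 without month 1 tree 1, 0.0646 without month 1 tree 3, 0.0865 without month 36 tree 2 and 0.0841 without month 36 tree 3, with log2 fold changes of 1.51, 1.34, 1.67 and 1.86. Without month 1 tree 2, the control tree with high lMYC5, the log2 fold change was 3.52 and the adjusted p 0.000274.

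The bHLH147-like contig responded more at month 36 than at month 1 in PB217, while for lMYC5 the difference did not pass the test. The difference between the responses (TPD with ethephon against control at month 36, minus ethephon against control at month 1) was 1.48 on the log2 scale for the bHLH147-like contig (SE 0.38, 95% interval 0.66 to 2.30, adjusted p 0.0381 in edgeR's quasi-likelihood test of the interaction). For lMYC5 it was 0.02 (SE 0.88, 95% interval -1.86 to 1.90, adjusted p 0.993), an interval wide enough to hold the difference seen for the bHLH147-like contig. Of the 30609 contigs 2.26% were called higher in this test, with 1 of the 2 members among them. The bHLH147-like call rested on single trees. Left out in turn, month 1 control trees 1, 2 and 3 gave adjusted p values of 0.0633, 0.0992 and 0.0603 (log2 1.47, 1.34 and 1.61), month 1 ethephon trees 1 and 3 gave 0.082 and 0.0967 (log2 1.35 and 1.38), month 36 control trees 1 and 2 gave 0.0778 and 0.0854 (log2 1.31 and 1.41), and TPD tree 2 gave 0.0502 (log2 1.22). For lMYC5 the difference was -1.66 without month 1 control tree 2.

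The clones were set against each other at month 36. In control trees lMYC5 was 2.79-fold higher in PB217 than in PB260 (log2 1.48 ± 0.44, 95% interval 1.41-fold to 5.52-fold, adjusted p 0.0307 in edgeR's quasi-likelihood test). The bHLH147-like contig was 1.68-fold higher without passing this test (log2 0.74 ± 0.28, 1.09-fold to 2.58-fold, adjusted p 0.0711). lMYC5 levels of the clones did not overlap and those of the bHLH147-like contig did. The mildew matches stood at 3.66 to 5.95 CPM in PB217 and 13.0 to 15.9 CPM in PB260, the summed latex markers at 40.1 to 103 and 6.87 to 58.1 CPM, and the TMM factors at 0.810 to 0.884 and 1.07 to 1.17, and their part in the difference was not tested. Among the 29460 contigs 15.3% were called higher in PB217 and 22.5% had no overlap in that direction. The lMYC5 call was lost without PB217 control tree 2 (adjusted p 0.0889, log2 1.33), PB217 control tree 3 (0.0794, log2 1.498) or PB260 control tree 2 (0.0869, log2 1.499). The bHLH147-like contig passed without PB260 control tree 1 (adjusted p 0.0462, log2 0.92), by the same edgeR test.

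In TPD trees with ethephon, severe TPD in PB260, lMYC5 did not differ between the clones beyond the spread of the trees, with a log2 difference of -0.19 for PB217 against PB260 (SE 0.27, 95% interval -0.79 to 0.40, adjusted p 0.726 in edgeR's quasi-likelihood test). The bHLH147-like level of PB217 was 0.624 of that of PB260 (log2 -0.68 ± 0.28, 95% interval -1.30 to -0.06, adjusted p 0.174). All PB217 trees lay below all PB260 trees for the bHLH147-like contig, as for 14.3% of contigs, and 4.13% of the 30510 contigs were called lower. Without PB217 TPD tree 2, which was the highest of its group, the log2 difference of the bHLH147-like contig was -0.95 and passed (adjusted p 0.047, edgeR).

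The fold with TPD and ethephon over control was smaller in PB217 than in PB260 for both factors, but the difference did not pass the test over all contigs. It was -1.66 for lMYC5 (SE 0.56, 95% interval -2.86 to -0.45) and -1.41 for the bHLH147-like contig (SE 0.41, 95% interval -2.28 to -0.54) on the log2 scale. Adjusted p values from edgeR's quasi-likelihood test of the interaction were 0.293 and 0.221, with unadjusted p values of 0.0105 and 0.00385. The test called 0.144% of the 32626 contigs lower.

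The groups stood in the same order for both factors. From the lowest mean level to the highest, the order was PB217 control at month 1, PB260 control, PB217 ethephon at month 1, PB217 control at month 36, PB217 TPD with ethephon, PB260 severe TPD and PB260 slight TPD with ethephon. Neighbours without overlap for lMYC5 were PB260 control and PB217 ethephon at month 1, PB217 control at month 36 and PB217 TPD, and severe and slight TPD of PB260. For the bHLH147-like contig they were PB217 control at month 36 and PB217 TPD, and PB217 TPD and PB260 severe TPD. All other neighbours overlapped. lMYC5 varied most between trees in groups with low levels, with a coefficient of variation of 119% in PB217 control trees at month 1 and 62.5% in PB260 control trees.

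Per length of contig, the balance between the factors varied among the libraries. The ratio of lMYC5 to the bHLH147-like contig in CPM per kb, which does not depend on library scaling, ranged from 0.146 to 1.74 over the 21 libraries. In PB260 it was 0.930, 0.819 and 0.388 in control trees, 0.693, 0.757 and 0.681 in slight TPD trees with ethephon and 0.684, 0.769 and 0.624 in severe TPD trees. In PB217 at month 36 it was 1.33, 1.74 and 0.954 in control trees and 0.947, 0.946 and 1.03 in TPD trees. All 6 PB217 libraries of month 36 lay above all 9 PB260 libraries. The closest values were 0.946 in a PB217 TPD tree and 0.930 in a PB260 control tree. Both clones were mapped to contigs of PB260, and the part of mapping in this ratio was not tested.

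The difference between the clones in this ratio was 0.97 on the log2 scale in control trees and 0.50 in TPD trees with ethephon (severe in PB260). An exact two-sided permutation test of each gave p = 0.1, also p = 0.1 after Benjamini-Hochberg adjustment over the 2 comparisons, and this is the smallest p that 3 against 3 trees allow. At month 1 in PB217 the ratio was 1.57, 1.49 and 1.27 with ethephon and 0.322, 1.38 and 0.146 without. The single high value among the control trees was tree 2.

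**Figure D3:**
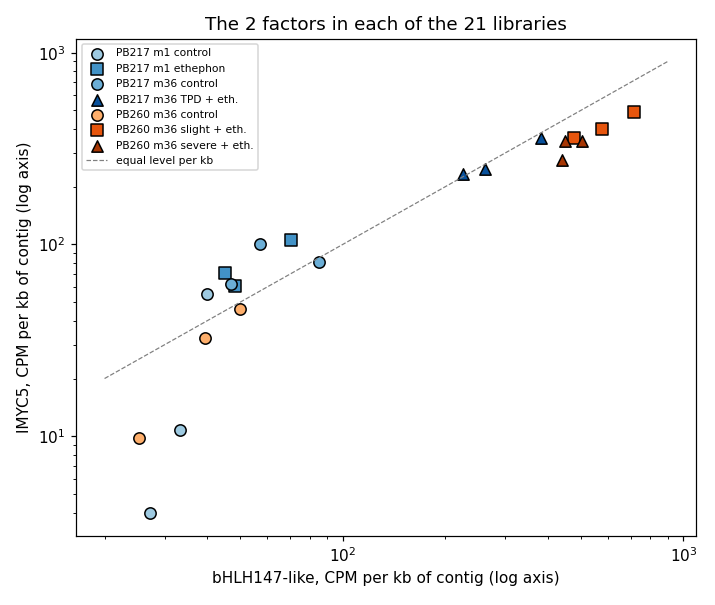
Level of lMYC5 against the bHLH147-like contig in each of the 21 libraries, in CPM per kb of contig on log axes, with groups by colour and shape and a dashed line at equal levels. PB260 libraries lie below the line, with ratios of 0.388 to 0.930, and PB217 control trees 1 and 3 of month 1 lie farthest below it.

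Of the 7 other contigs annotated as bHLH factors in the part of the annotation used here, 4 were at or near 0 in every library, namely a BEE 1-like contig (CL10528Contig1), CL10528Contig2, CL10724Contig1 and a bHLH94-like contig (CL10850Contig2). The other 3 followed the members across groups. They are a further bHLH147-like contig (CL1Contig13375), which matches the same gene model as CL1Contig10832, and the bHLH149-like contigs CL4432Contig1 and CL4432Contig2, which share another. Overlap in sequence between contigs of one gene model was not examined here, so their levels are uncertain where reads could fit either contig. Per kb, CL1Contig13375 stood at 0.0074 to 0.0323 of the level of CL1Contig10832. After each group's mean was removed, CL1Contig13375, CL4432Contig1 and CL4432Contig2 correlated with lMYC5 at r = 0.10, 0.13 and 0.41. With CL1Contig10832 the values were 0.41, 0.31 and 0.72.

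In PB260 slight TPD trees with ethephon, the bHLH149-like CL4432Contig2 stood at 109, 103 and 185 CPM against 12.2, 11.5 and 5.35 CPM in control trees. All 3 of 3 contigs tested were called higher there, against 13.2% of all contigs, with log2 fold changes of 3.75 to 4.05 (median 3.79), and 3 of 3 in severe TPD trees against control, with 2.86 to 3.68, against 6.6% of all contigs. None of the 3 passed between severe and slight TPD trees. The study listed the bHLH147-like and bHLH149-like contigs among those over-expressed with ethephon in PB260, so that their direction there is not independent of how they came to be annotated. CL1Contig13375 stood at 0.433 to 0.754 CPM in PB260 control trees. It entered the tests against control only through ethephon trees, so that its direction there was set by the count filter.

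In PB217 at month 36, CL4432Contig2 stood at 117, 328 and 91.6 CPM in TPD trees against 22.7, 22.7 and 25.0 CPM in control trees. There 3 of 3 contigs were called higher, against 4.51% of all contigs, with log2 fold changes of 2.18 to 3.47, and 0 of 2 tested at month 1. Of the 3, CL1Contig13375 stood at 0.734 to 2.48 CPM in month 36 control trees. It entered the test mainly through the TPD trees, so that the count filter favoured its direction. The month 36 count fell to 0 of 3 without control tree 1, 1 of 3 without control tree 2, 0 of 3 without control tree 3 and 2 of 3 without TPD tree 1. Without control tree 3, edgeR's quasi-likelihood test called 0 contigs in all and 6133 had an unadjusted p under 0.05. With all trees, the exact test called 4847 contigs and DESeq2 4875. For CL4432Contig2 the month 1 log2 fold change was 0.61 ± 0.16, with an adjusted p of 0.576 in edgeR's quasi-likelihood test. The response at month 36 exceeded that at month 1 for 2 of 3 contigs, the bHLH149-like ones, by 2.30 and 2.87 on the log2 scale with adjusted p values of 0.024 and 0.0162 in the edgeR test. All contigs called higher there made up 2.26%. Only 1 of 3 passed without month 1 control tree 2 or 3, month 1 ethephon tree 2 or 3, or month 36 control tree 2 or 3, and 3 of 3 passed without TPD tree 3.

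**Figure D4:**
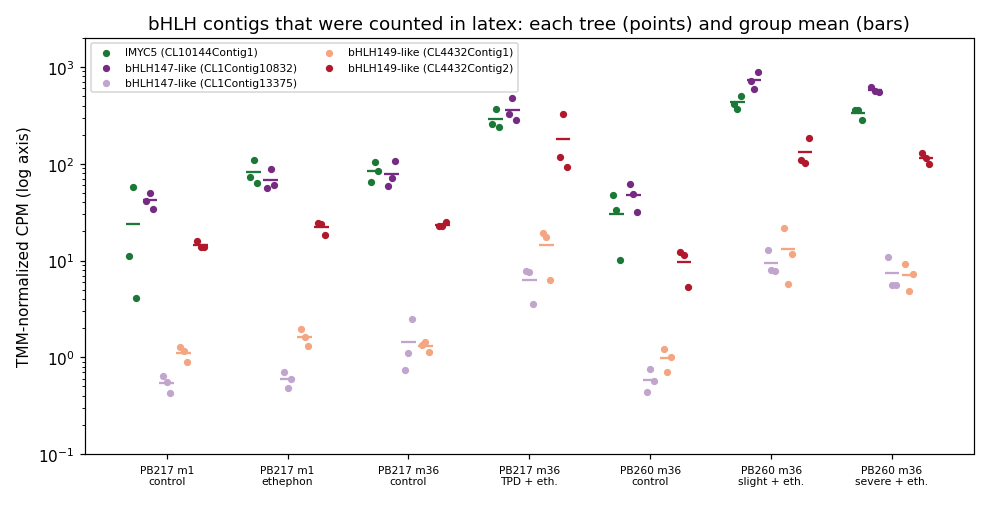
Level of the 5 bHLH contigs counted above traces, in TMM-normalized CPM on a log axis, by group. Points are trees and bars are means of 3 trees. The bHLH149-like CL4432Contig2 rose from 5.35 to 12.2 CPM in PB260 control trees to 103 to 185 CPM in slight TPD trees with ethephon, and CL1Contig13375 stayed far below CL1Contig10832 in every library.

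Jasmonate, the hormone that releases MYC factors from repression, is made from membrane lipids by phospholipase A1, lipoxygenase, allene oxide synthase and allene oxide cyclase in turn. All 6 contigs of these enzymes were called higher in PB260 slight TPD trees with ethephon than in control trees, against 13.2% of all contigs, with log2 fold changes of 2.93 to 5.76 (median 4.45, against 0.0017 over all contigs tested), and 5 of 5 tested in severe TPD trees against control, where 6.6% of all contigs were. None of 6 passed between severe and slight TPD trees. Most were annotated because the study listed them as over-expressed with ethephon in these trees. In control trees CL1554Contig5 stood at 0 to 0.079 CPM and CL1Contig709 at 0.101 to 0.236 CPM. Both entered the tests against control only through ethephon trees, so that their direction was set by the count filter. The counts against control are therefore descriptions of these contigs.

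In PB217 TPD trees at month 36, 2 of 4 contigs tested were called higher than in control trees, against 4.51% of all contigs. They were the phospholipase A1-like contig CL1Contig21396, with a log2 fold change of 5.25 ± 0.70, and the allene oxide cyclase 3-like contig CL10285Contig1, with 1.63 ± 0.31. CL10285Contig1 stood at 0.567 to 0.829 CPM in control trees and at 1.96 to 2.23 CPM in TPD trees. It entered the test only through the TPD trees, so that its direction was set by the count filter. The allene oxide synthase-like contig CL1Contig911 was 5.75-fold higher without passing edgeR's quasi-likelihood test (log2 2.52 ± 0.74, 95% interval 1.80-fold to 18.4-fold, adjusted p 0.063). DESeq2 and edgeR's exact test each called 3 of 4. Without control tree 1 or control tree 3 the count was 0 of 4, without control tree 2 it was 1 of 4, and without TPD tree 1 or 2 it was 1 of 3 tested.

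Set against PB260 severe TPD trees, 4 of 5 contigs were called lower in PB217 TPD trees, against 4.13% of all contigs, where the log2 difference of lMYC5 was -0.19. Without PB217 TPD tree 1 or 3 this count was 2 of 5, and without PB260 severe TPD tree 3 it was 2 of 4 tested. Most of the jasmonate synthesis contigs were annotated because the study listed them as over-expressed with ethephon in PB260. The list thus favours contigs that are high in PB260 ethephon trees. The counts between clones, in level and in response, are therefore descriptions of these contigs. Of those called lower, the allene oxide synthase-like contig CL1Contig709 stood at 0 to 0.046 CPM in PB217 TPD trees. It entered the test only through the PB260 trees, so that its direction was set by the count filter. The lipoxygenase 6-like contig CL1554Contig7, the last of the 4 tested within PB217 at month 36, stood at 2.80, 3.12 and 1.69 CPM in PB217 TPD trees, at 3.90, 2.70 and 2.84 CPM in PB217 control trees and at 47.5, 26.9 and 29.7 CPM in PB260 severe TPD trees. Its levels in PB217 thus lay well below those of PB260 severe TPD trees in both conditions. They were near those of PB260 control trees, at 1.17 to 3.03 CPM (mean 2.36). Its fold with TPD and ethephon over control differed between the clones by -4.19 on the log2 scale (PB217 minus PB260, SE 0.52). This passed edgeR's quasi-likelihood test of the interaction (adjusted p 0.0095), as 1 of 5 jasmonate synthesis contigs tested, against 0.144% of all contigs called lower. At month 1, 0 of 2 contigs tested passed.

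The contigs whose pattern was most like that of each factor were taken by the Pearson correlation of log2(CPM + 1) over the 21 libraries, among 34212 contigs. These points share the groups, the library scaling and the reference, and the correlations are descriptions. Closest to lMYC5 was CL3841Contig1 (r = 0.94), for which no annotation was held. It was also close within groups, after each group's mean was removed (r = 0.93). Its mean level was 8.33 ± 11.6 CPM in PB217 control trees at month 1, 227 ± 59.2 CPM in PB217 TPD trees and 417 ± 57.5 CPM in PB260 slight TPD trees with ethephon. CL6324Contig1, CL14664Contig1, CL1Contig14487 and CL1897Contig7 followed, with r of 0.91 to 0.93 and no annotation held.

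Among annotated contigs, the bHLH147-like contig itself was closest to lMYC5 (r = 0.91, rank 7, and 0.68 within groups). The bHLH149-like CL4432Contig2 (r = 0.88) and the phospholipase A1-like CL1Contig21396 (r = 0.87) came next. The phospholipase A1-like contig followed lMYC5 within groups as well (r = 0.90). In PB217 control trees at month 1 it stood at 0.563, 10.7 and 0.213 CPM, highest in tree 2, as lMYC5 was. Within groups CL4432Contig2 was less close to lMYC5 (r = 0.41). The other jasmonate synthesis contigs followed lMYC5 only weakly within groups, with r of 0.036 to 0.37.

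Closest to the bHLH147-like contig were CL7484Contig1 (r = 0.97), with no annotation held, the ZAT5-like zinc finger contigs CL15911Contig1 (r = 0.97) and CL18268Contig1 (r = 0.96), the WRKY22-like CL18582Contig1 (r = 0.97) and CL6324Contig1 (r = 0.97). ZAT zinc finger proteins and WRKY factors are transcription factors of stress and defence responses. Within groups these correlations were 0.72, 0.23, 0.50, 0.39 and 0.68 in that order, so the ZAT5-like and WRKY22-like contigs followed the bHLH147-like contig mainly across groups. Their group means were 0.017 to 0.815 CPM in control trees and month 1 ethephon trees, and 5.08 to 24.2 CPM in month 36 ethephon trees. They entered the ranking mainly through the latter, where the bHLH147-like contig is also high, so that the count filter favoured their likeness. With a CPM of at least 1 required in all 21 libraries they were left out. From the side of the bHLH147-like contig, lMYC5 ranked 212th.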

How the data were processed

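The deposited files give, per contig and library, counts of read pairs. According to the methods and file headers, the authors trimmed the reads (stranded polyA libraries) with the fastx toolkit, removed ribosomal reads with sortMeRNA and mapped the rest with Bowtie2 in local mode to the PB260 transcriptome (the labels also name TopHat2). Pairs with both mates on 1 contig were counted, and reads that hit several contigs equally well were left out. Counts of contigs with shared sequence can therefore be too low.

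For each comparison its own 6 libraries (12 for differences between responses) were taken, a contig entered the test if 3 or more of them had a CPM of 1 or more, and TMM scaled the counts. edgeR 4.0.16 (R 4.3.3) gave a quasi-likelihood F test with Benjamini-Hochberg adjustment over all contigs tested, a threshold of 0.05 and a prior count of 0.125. The test was tried on simulated counts. Library depth was 16102321 to 23126417 pairs and overlapped between groups. Each library is 1 tree, and no 2 files were identical. Alternatives were DESeq2 1.42.0 size factors and its Wald test, edgeR's exact test, no count filter, 1 fit of all 21 libraries, the replicate number as a block, and leaving out each tree. For likeness they were a pseudocount of 0.1 in place of 1 and a CPM of at least 1 in all 21 libraries.

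Members and lists were chosen with earlier results of these data known. Named contigs are the members, 7 other bHLH and 6 jasmonate synthesis contigs, and for each member the 5 contigs most like it and the 3 highest annotated ones. The annotation used here covers some contigs (835 informative entries), so family counts cover that part only. Contig sequences were not used here, and genome positions are not given. Counts of single reads in the same files were not used.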

Additional observations from a re-analysis of the deposited data

Results flagged for a closer look

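The response of the bHLH147-like contig in PB217 differed between the months, by a test of the difference itself. It was 1.48 higher on the log2 scale at month 36 (TPD trees with ethephon against control) than at month 1 (ethephon against control), with an adjusted p of 0.0381 in edgeR's quasi-likelihood test of the interaction. The months differ in the duration of tapping and of ethephon, in TPD, in harvest day and in trees, which cannot be told apart. Leaving out single trees raised the adjusted p to at most 0.0992, with differences from 1.22 to 1.74. With 3 trees a group, no single tree was tested as lying far from its group.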

How the results depend on the processing

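Both members kept their direction and their call in PB260 slight and severe TPD trees with ethephon against control, and in PB217 TPD trees against month 1 ethephon trees, under every alternative run. Neither was called between severe and slight TPD trees under any alternative. Of 284 values under alternatives for the 22 results of the members, 244 kept direction and side of the threshold.

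With no count filter, differences passed for PB217 month 1 ethephon (log2 1.76 for lMYC5, 0.71 for the bHLH147-like contig), the bHLH147-like clone difference in control trees (0.73) and the clone difference in response (-1.67 and -1.43). With DESeq2's Wald test the lMYC5 change between months in control trees no longer passed (1.87), while the bHLH147-like clone difference in control trees (0.75) and in response (-1.44) did. edgeR's exact test called the clone difference in control trees (0.74), and 1 fit of all 21 libraries lost that of lMYC5 (1.46). The lMYC5 difference in response between months, near 0, turned to -0.0068 with no filter, to -0.00055 with DESeq2 and to -0.45 with the replicate block. The cause was not tested in any of these. Over all alternatives the adjusted p, for lMYC5 and the bHLH147-like contig, ranged from 5.94e-08 to 0.082 and 8.81e-10 to 0.068 for PB217 TPD, 4.49e-17 to 1.0 and 0.0184 to 1.0 for PB217 month 1, 6.53e-21 to 0.145 and 1.59e-06 to 0.0259 between months in control trees, 3.24e-05 to 0.0889 and 0.0175 to 0.26 for the clones in control trees, 0.292 to 0.982 and 0.047 to 0.439 for the clones in TPD trees, and 0.102 to 1.0 and 0.000845 to 0.0992 for the response between months (edgeR or DESeq2).

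Leaving out 1 tree gave log2 values for lMYC5 and the bHLH147-like contig of 1.59 to 1.99 and 1.98 to 2.49 for PB217 TPD, 1.02 to 1.92 and 0.48 to 0.93 for the clones in control trees, and -1.66 to 0.52 and 1.22 to 1.74 for the difference between months in response. For lMYC5 between months in control trees it gave 1.34 to 3.52, and for the bHLH147-like contig between clones in TPD trees -0.95 to -0.47.

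Replicate numbers did not pair the trees: same-numbered trees correlated at -0.456 to 0.438 after removing group means, with every pair over 0.1 in 0 of 9 comparisons and every tree closest to its own number in 0 of 9. The replicate block changed no call of a member. It moved the number of called contigs from 40 to 88 between severe and slight TPD, from 2906 to 1363 between clones in TPD trees, from 6943 to 4156 between months with ethephon and from 0 to 6 at month 1.

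Numbers of called contigs moved more than those of members. They ranged over all alternatives from 0 to 752 between severe and slight TPD, 0 to 464 for PB217 at month 1, 0 to 6822 for PB217 TPD (2604 as reported, 0 without control tree 3), 1005 to 7441 for PB260 severe TPD against control (3439), 5154 to 9088 for PB260 ethephon (8436), 22 to 1014 for the clone difference in response (52), 410 to 5363 for the response between months (2013), 1202 to 8173 for the clones in TPD trees, 4758 to 11310 for the clones in control trees (8595) and 2364 to 10342 between months with ethephon. Of the 5 contigs most like lMYC5, 4 and 5 were shared under the other pseudocount and filter, and of those most like the bHLH147-like contig 2 and 3. DESeq2 size factors moved no share of higher calls by over 10 percentage points. With 3 trees a group, changes of single trees decide calls near the threshold, and lMYC5 was measured with as few as 77 pairs where it was low.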
